A study of Mus musculus with 2 samples.

Results

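Hair placodes are the first visible step of hair follicle formation, small thickenings of the embryonic epidermis whose keratinocytes signal to the dermis below. This account describes the placode keratinocytes of wildtype mouse embryonic skin, 203 of the 466 epidermal cells that were identified in a droplet-based single-cell RNA library of 9065 wildtype barcodes. The whole data set held 19514 barcodes from 2 libraries. A member was a barcode outside the authors' dermal list with 1000 or more genes, under 10% mitochondrial UMIs (unique molecular identifiers, each counting 1 captured RNA molecule), 4 or more of the epidermal markers Krt5, Krt14, Krt15, Trp63, Epcam and Perp, 10 or more UMIs of Krt5 plus Krt14, and a UMI of 3 or more of the 8 placode genes Shh, Dkk4, Edar, Lhx2, Wnt10b, Fgf20, Bmp2 and Ltb. The members were therefore chosen by their UMIs of these 8 genes and of the epidermal markers. They were compared with 215 interplacode keratinocytes, the wildtype epidermal cells with 0 or 1 of the 8, and 48 cells with 2 of the 8 were kept apart.

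The skin was dorsolateral and flank skin of embryos at stage E14.5. The wildtype library came from control littermates of the mutants. The other library, the Wntless mutant, came from embryos in which K14Cre, a recombinase driven in keratinocytes by a Krt14 promoter, had been bred to the floxed Wntless fl/fl allele (gene symbol Wls), which encodes the carrier that takes Wnt ligands to the cell surface. The 139 mutant epidermal cells with 0 or 1 of the 8 genes, called mutant cells below, held 24 UMIs of Wls, against 707 in the interplacode cells. Each library pooled 2 to 3 embryos of 1 genotype, both were dissociated with trypsin and sorted after DAPI staining, and they were prepared in parallel and sequenced on 1 lane. With 1 library per genotype there is no replicate. No difference below was tested, cells are not replicates, and every 95% interval covers counting error only.

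Placodes form where canonical Wnt signalling, in which beta-catenin acts with TCF/LEF factors, meets the Eda-Edar pathway, which acts through NF-kB. Placode cells then send Shh, FGF and other signals to fibroblasts, which gather into the dermal condensate. Wnt inhibitors and BMP signals made around and within the placode are known to set its spacing.

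The 203 placode keratinocytes gave 3488013 UMIs in all, with 4004 at the lowest, a median of 14990 and 73189 at the highest per cell. The interplacode cells gave 4373833 UMIs with a median of 17415 per cell, so the placode cells were not the deeper group. Median mitochondrial shares were 2.61% and 2.71%. Krt5 plus Krt14 had a median of 22 UMIs in placode and 47 in interplacode cells, and 22 placode cells lay just above the keratin limit, at 10 to 12 UMIs. Outside it, 18 barcodes with 3 or more of the 8 genes and enough epidermal markers failed with a median of 6.5 keratin UMIs. A further 8 barcodes had fewer than 4 epidermal markers. The libraries shared 19 barcodes, none of them among the placode cells.

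The number of the 8 genes detected spread over the whole range in the wildtype epidermis. Of its 466 cells, 126 had 0 of the 8, 89 had 1, 48 had 2, 42 had 3, 37 had 4, 36 had 5, 43 had 6, 37 had 7 and 8 had all 8. The placode share was 43.6% (39.0 to 48.2%, exact Clopper-Pearson). After thinning each cell to 10000 UMIs, which left out shallower cells, it was 156 of 428 cells, or 36.4% (31.9 to 41.2%). Of the 154 mutant epidermal cells 70 had 0 of the 8, 69 had 1, 13 had 2, and 1 cell each had 3 and 4. The mutant share was thus 2 of 154, or 1.30% (0.158 to 4.61%), at a median of 24674 UMIs per cell, and 0 of 153 thinned cells, where 3 counts of the total allow up to 1.96%. As background for free RNA, 1 of 5300 cells on the wildtype dermal list met the criterion of 3 genes (0.0189%), as did 0 of 289 wildtype macrophages (3 counts allow 1.04%) and 0 of 495 muscle cells (0.606%), with medians of 11154, 16259 and 17443 UMIs. In these pooled samples genotype and library cannot be told apart.

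**Figure D1:**
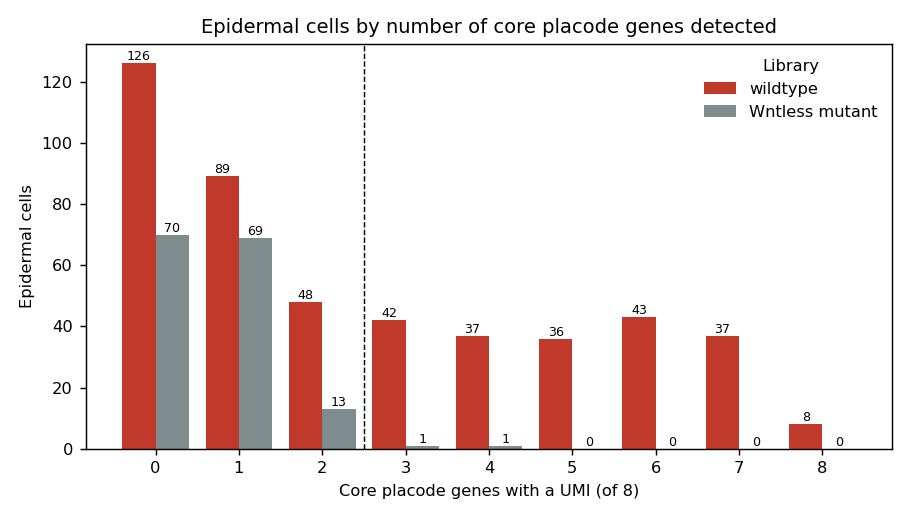
Number of epidermal cells (vertical axis) by how many of the 8 core placode genes had a UMI in the cell (horizontal axis), in the wildtype library and the Wntless mutant library. The dashed line marks the threshold of 3 genes, above which lie 203 wildtype and 2 mutant cells.

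The 8 genes that chose the cells are given as a description. Dkk4, a secreted Wnt antagonist induced by Wnt signalling, had the most UMIs of the 8, with 2119 in placode cells, a median of 5 per cell and 150 in the highest cell. It had 4 UMIs in all interplacode cells and 0 in the mutant cells with 0 or 1 of the 8. Ltb, the TNF family ligand lymphotoxin beta, was found in the largest share of members, 89.2% (1555 UMIs, against 43 in interplacode cells). Wnt10b, a Wnt ligand, was in 83.3% of placode cells and also in 22.3% of interplacode cells, the highest interplacode share of the 8. Shh, the hedgehog ligand, was in 113 of 203 cells (55.7%), with 334 UMIs against 1. Fgf20, the FGF that induces the dermal condensate, and Edar, the Eda receptor, were each in 54.2%, with 318 and 177 UMIs against 1 and 8. Bmp2, a BMP ligand, was in 65.5% with 398 UMIs against 19, and Lhx2, a LIM homeobox transcription factor, was in 27.1% with 90 against 0.

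Because a member needed a UMI of 3 or more of the 8, overlaps among the 8 are shaped by the rule and are a description only. Of the 55 cells with Lhx2, 81.8% also had Shh, whereas 39.8% of the 113 cells with Shh had Lhx2. Of the 110 cells with Fgf20, 60.9% had Shh, and of the 113 with Shh, 59.3% had Fgf20.

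Across the transcriptome, 8635 genes outside the 8 had 50 or more UMIs over both groups and counted as measured. Of these, 946 (11.0%) were at least 1.5-fold higher in placode cells and 710 (8.22%) at least 1.5-fold lower, with a median log2 ratio of placode over interplacode of 0.04. The counts of each gene list below stand against these shares. Levels are in CPM, the gene's UMIs scaled to a group total of 1000000. Among genes that reached 100 UMIs, the 15 with the highest and the 15 with the lowest ratio are named below. Cpa3 and Prss34, mast cell genes at under 5% of their mast cell level, and the haemoglobin genes Hbb-y and Hba-x were left out of the highest.

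Among genes with 100 or more UMIs, and after those exclusions, the highest log2 ratio was that of Ascl4, a basic helix-loop-helix transcription factor of the achaete-scute family (ENSMUSG00000085111, chromosome 10, 85927681 to 85946206 on the plus strand of GRCm38, in the GENCODE annotation). It was at 80.8 CPM in placode, 2.51 in interplacode and 1.63 in mutant cells, a 32.1-fold difference between the wildtype groups (log2 ratio 5.01, 4.15 to 6.03). Cyfip2, which encodes a subunit of the WAVE complex that drives actin branching, followed at 75.4 against 4.12 CPM (4.20, 3.51 to 4.97), and it had 1 UMI in the mutant cells. Tgfb2, a TGF-beta ligand, was at 79.7 against 5.03 CPM (3.99, 3.36 to 4.68). In thinned cells Ascl4 was detected in 51.9% of placode and 2.44% of interplacode cells, and in 1 of 3384 dermal cells (0.0296%).

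The other genes among the highest were of several kinds. Sox21, a Sox family transcription factor, was at 73.1 against 6.17 CPM, and Myb, a transcription factor of proliferating progenitors, at 39.6 against 3.89. Lrp4, a receptor related to the Wnt co-receptors that binds Wnt antagonists, was at 104 against 10.5 CPM. S100a9, a calcium-binding protein best known from neutrophils, was at 263 against 19.0 CPM (log2 ratio 3.79, and 2.97 without cells holding 3 or more markers of another type), in 48.8% and 6.05% of cells, and in 2 of 3384 thinned dermal cells (0.0591%). Mical2, an actin-oxidising enzyme, had 100 UMIs against 13, and 0 in the mutant cells. Nkain3, Mybpc1, Scube1, Lgi2, Mapk4, Sp5 and Trbc2 completed the 15, with log2 ratios from 3.23 to 3.93.

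Wnt pathway genes included both directions. Of 11 measured Wnt/beta-catenin targets, 6 were higher, 2 lower and 3 between (median 0.76). Sp5, a transcription factor gene that Wnt signalling switches on directly, was at 54.5 against 5.72 CPM (log2 ratio 3.25, 2.65 to 3.92). When the highest 8% of doublet scores were left out its log2 ratio was 7.40, and Sp5 had a UMI in 36.4% of thinned dermal cells, against 32.0% of placode and 3.90% of interplacode cells. Tcf7, a TCF/LEF factor, was at 17.8 against 3.89 CPM and Lef1, another, at 245 against 120. Wif1, a secreted Wnt inhibitor, was at 67.1 against 15.8 CPM. Axin2, the feedback inhibitor most used as a readout of the pathway, was at 24.4 against 14.4 CPM (0.76). The 2 lower targets were Myc and Ccnd1, growth genes that other pathways also drive, at -1.0 and -0.61.

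Of 8 measured Wnt ligands, 3 were lower, 1 higher and 4 between (median -0.38), with Wnt10b left out as a rule gene. Wnt4 was at 58.5 CPM in placode cells, 219 in interplacode and 380 in mutant cells (log2 ratio -1.90, -2.13 to -1.69). Wnt7b was at 6.02, 35.0 and 48.5 CPM, and Wnt16 at 6.31, 21.5 and 8.40. The higher one was Wnt3, at 77.1 against 42.5 CPM. Wls, the Wnt carrier, was itself lower in placode cells, at 75.4 against 162 CPM (-1.10, -1.31 to -0.89), and at 6.50 in mutant cells.

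Of 17 Wnt receptors and modulators, 9 were higher, 2 lower and 6 between (median 0.68). Beta-catenin itself, Ctnnb1, was at 1014 against 380 CPM (1.41, 1.33 to 1.5) and had a UMI in every placode cell. Fzd10, a Frizzled receptor, was at 142 against 64.5 CPM. The R-spondin receptors Lgr4 and Lgr6 were at 59.9 against 26.3 CPM and at 17.5 against 4.57. The lower members were Fzd6, at -0.72, and Sostdc1, a secreted antagonist of BMP and Wnt, at 96.3 against 426 CPM (-2.15, -2.32 to -1.98).

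Promoter sequences of higher genes were read from RefSeq (GRCm38.p6, up to 250 bases before each start), which matched 45 of the 64 higher named genes and 4 of the 8 rule genes. The TCF/LEF word CTTTGAT, on either strand, was in a promoter of 2 of the 45 genes and 1 of the 4, against 3.72% of all 27025 genes with a promoter in the table. A gene counted once, with any of its promoters. The 2 promoters below show it in capitals, printed 5′ to 3′ on the gene's own strand. Sp5 (chr2:70474673-70474922, plus strand) had the highest ratio of the measured Wnt targets, and Edar (chr10:58675697-58675946, minus strand) encodes the receptor of the Eda pathway. A match is a description of letters and not a binding site.
Sp5: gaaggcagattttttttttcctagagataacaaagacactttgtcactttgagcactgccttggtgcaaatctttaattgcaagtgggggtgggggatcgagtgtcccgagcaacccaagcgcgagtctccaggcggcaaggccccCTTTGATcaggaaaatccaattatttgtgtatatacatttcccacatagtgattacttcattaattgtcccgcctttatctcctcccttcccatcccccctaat
Edar: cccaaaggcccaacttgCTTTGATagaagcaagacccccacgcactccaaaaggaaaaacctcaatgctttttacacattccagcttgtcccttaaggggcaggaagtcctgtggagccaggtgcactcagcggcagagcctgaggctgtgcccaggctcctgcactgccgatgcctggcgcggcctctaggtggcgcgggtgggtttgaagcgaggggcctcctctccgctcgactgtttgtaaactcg

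Most measured genes of the Eda and NF-kB pathway were higher in placode cells, with Edar and Ltb left out. Of 16 measured members 12 were higher, 0 lower and 4 between (median 1.08). Tnfaip3, a feedback inhibitor of NF-kB, had 60 UMIs in placode and 1 in interplacode cells (log2 ratio 6.23, 3.70 to 11.56), in 24.1% and 0.465% of cells. Cxcl10, a chemokine, had 58 UMIs in 9.85% of placode cells and 0 in interplacode cells, at least 24.2-fold higher against 3 counts over the group. Relb, an NF-kB subunit, was at 53.9 against 7.77 CPM. Madcam1, an adhesion molecule and known Edar target in skin, was at 37.0 against 8.69 CPM. Nfkbia, the inhibitor IkB-alpha, was at 230 against 69.5 CPM, and Nfkb2, a precursor subunit, at 23.8 against 6.40.

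The other 4 members lay under 1.5-fold. Edaradd, the Edar adaptor, was at 39.0 against 26.8 CPM (0.54), Rela at 0.42 and Traf6, a signal transducer, at 0.48. Ltbr, the receptor for lymphotoxin beta, had 19 UMIs in placode and 34 in interplacode cells (-0.51).

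The NF-kB word, GGGA, any base, then TTTCC, on either strand, was in a promoter of 1 of the 45 genes and 1 of the 4, against 0.414% of all genes. Its matches are shown in capitals for Madcam1 (chr10:79664309-79664558, plus strand) and for Ltb (chr17:35194257-35194438, plus strand, only the bases before the annotated start), the pathway's adhesion gene and the most widely detected rule gene. In the printed strand both read as the reverse complement, with the same letters. The GLI word GACCACCC was in 0 of the 45 (0.814% of all genes) and the ETS word CCGGAAG in 4 (7.83%).
Madcam1: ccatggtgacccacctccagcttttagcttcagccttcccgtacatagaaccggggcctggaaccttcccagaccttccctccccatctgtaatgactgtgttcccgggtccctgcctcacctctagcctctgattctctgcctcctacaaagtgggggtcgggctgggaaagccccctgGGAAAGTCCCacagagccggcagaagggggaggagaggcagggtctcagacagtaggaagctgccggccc
Ltb: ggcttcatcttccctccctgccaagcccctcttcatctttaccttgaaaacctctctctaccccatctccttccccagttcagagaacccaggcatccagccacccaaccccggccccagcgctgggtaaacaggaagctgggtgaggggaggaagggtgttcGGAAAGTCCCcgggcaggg

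Hedgehog genes were mixed, with Shh itself left out. Of 11 measured members 3 were higher, 1 lower and 7 between (median 0.17). Gli1, the transcription factor most used as a readout, was at 21.2 against 9.15 CPM (1.21, 0.64 to 1.81) and 0 UMIs in the mutant. Ptch1, the main receptor and also a target, was nearly even, at 62.8 against 50.5 CPM (0.31), with 5.69 in the mutant. Gas1, a co-receptor, was the lower member, at 39.9 against 192 CPM (-2.27).

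FGF ligands other than Fgf20 did not reach 50 UMIs. The receptors divided, with Fgfr2 at 68.8 against 118 CPM (-0.78) and Fgfr1 at 53.3 against 32.9 (0.70). Neither call held in every setting. Fgfr1 was at 0.26 without suprabasal cells and Fgfr2 at -0.57 with 2 or more of the 8, both under 1.5-fold. Fgfbp1, a carrier of FGF ligands, was at 99.5 against 273 CPM (-1.45). Of 12 genes that FGF and ERK signalling induce, 5 were higher, 1 lower and 6 between (median 0.53), with 3 of 10 higher without suprabasal cells. Without the top 8% of doublet scores, 6 of 9 were higher and 0 lower (median 0.83). Without cells holding 3 or more markers of another type, 6 of 8 were higher and 0 lower (median 1.58). Dusp6, the ERK phosphatase, was at 241 against 48.0 CPM (2.33, 2.11 to 2.55) and at 4.61 in mutant cells. Etv4, an ETS factor, was at 81.4, 14.4 and 0.271 CPM in the same order, and Etv5 at 42.4, 11.2 and 3.25. The Sprouty genes Spry1 and Spry2, inhibitors of the pathway, were under 1.5-fold, at 0.51 and 0.54, and the lower member was the immediate early gene Fos (-0.99). Fos was not called lower without the top 8% of doublet scores, nor without cells holding 3 or more markers of another type.

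Of 13 BMP genes 2 were higher, 3 lower and 8 between (median 0.25). Bmp7, a ligand, was at 77.1 against 33.8 CPM and Smad7, an inhibitory Smad, at 29.8 against 12.3. Fst, which encodes the BMP and activin antagonist follistatin, was at 16.3 against 72.9 CPM (-2.16), and Id1, a BMP-induced repressor, at 43.0 against 88.7 (-1.04). Of 13 TGF-beta and activin genes 4 were higher, 1 lower and 8 between (median 0.46). Beside Tgfb2 they included Tgfb1, at 37.8 against 13.0 CPM, and Ccn2, a matricellular protein, at 46.2 against 17.4. Of 7 Notch genes 0 were higher and 2 lower, Notch1 (-0.78) and the ligand gene Jag2 (-0.79). Without suprabasal cells Notch1 was at -0.30, under 1.5-fold.

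**Figure D2:**
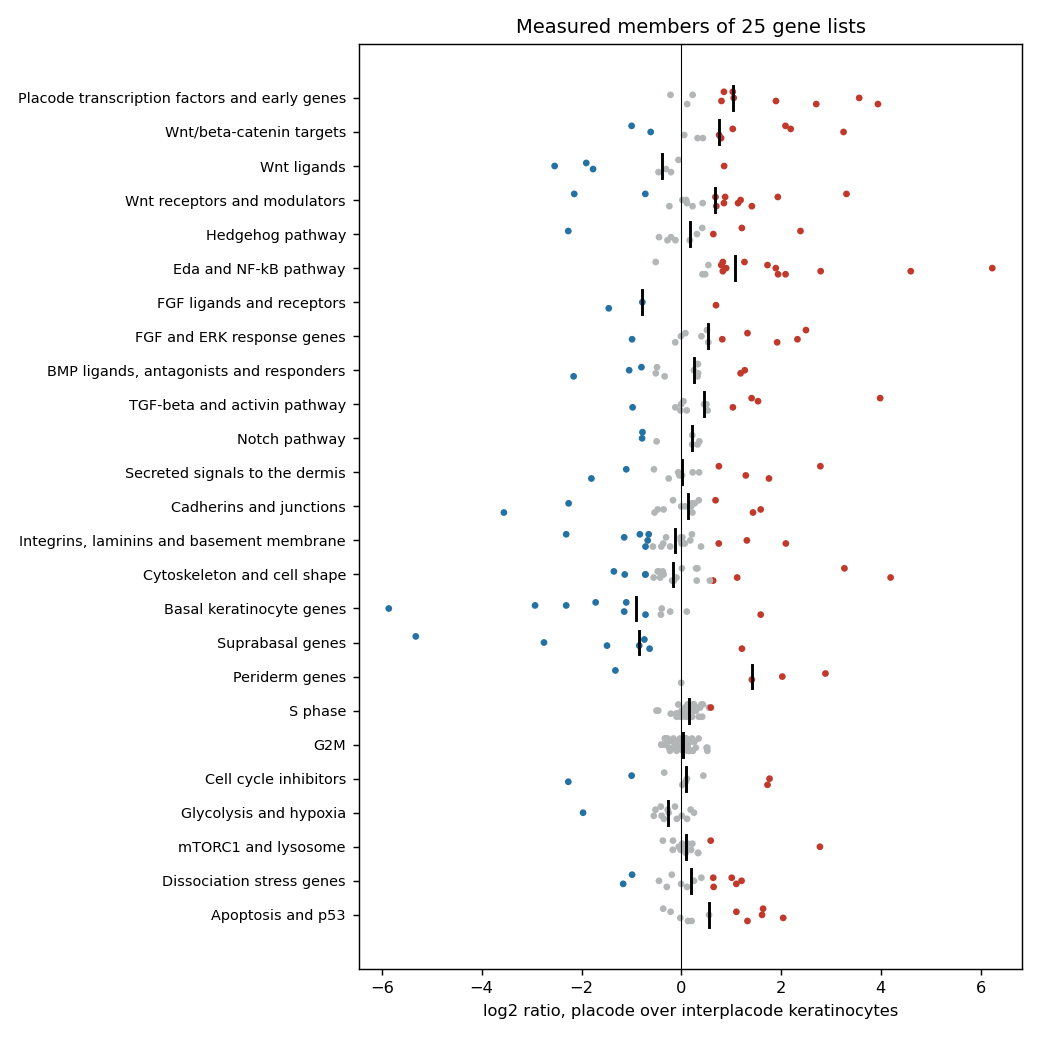
Each point is a measured gene of 1 of 25 lists (vertical axis), placed by its log2 ratio of placode over interplacode keratinocytes (horizontal axis). Red marks 1.5-fold or more higher, blue 1.5-fold or more lower, grey between, and the black bar is the list's median. The Eda and NF-kB list has 12 of 16 points in red, the basal list 7 of 12 in blue, and the S phase and G2M points gather near 0.

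Transcription factors known from placodes and early follicles were mostly higher. Of 11 measured, 8 were higher, 0 lower and 3 between (median 1.03). Trps1, a GATA-type repressor needed for follicles, was at 142 against 21.7 CPM (2.71, 2.39 to 3.04), Runx1 at 29.8 against 8.0, and Msx2, a homeobox factor, had 49 UMIs against 4. Foxp1, Tfap2b and Cux1 were between 0.81 and 1.05. Sox9, the factor of the later follicle stem cells, was nearly even, at 23.2 against 27.0 CPM (-0.22, under 1.5-fold).

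Of 13 measured signals that keratinocytes send to the dermis, outside the rule genes, 4 were higher, 2 lower and 7 between (median 0.02). Pthlh, the parathyroid hormone-related peptide, was at 122 against 17.6 CPM (2.79, 2.43 to 3.16) and at 1.08 in mutant cells. Sema3a, a guidance ligand, was at 35.6 against 10.5 CPM and Efna1, an ephrin, at 36.4 against 14.9. Other signals were close to even. Pdgfa, a growth factor for fibroblasts, was at 487 against 509 CPM, and the chemokine gene Cxcl14 had a log2 ratio of -0.25. Igfbp5, a binding protein for insulin-like growth factors, was at 50.7 against 177 CPM (-1.80).

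The 3 groups stood in different orders for different genes. Etv4, Dusp6, Pthlh and Trps1 were highest in placode, lower in interplacode and lowest in mutant cells. Interplacode over mutant log2 ratios were 5.73, 3.38, 4.02 and 2.87 for these 4 genes. The Etv4 and Pthlh ratios rest on very few UMIs in the mutant cells and are imprecise. For Lrp4 and Cdh3 interplacode and mutant cells had near levels (10.5 and 10.6 CPM, 40.2 and 39.3 CPM). For Sox21 the mutant level was above the interplacode one, at 14.1 against 6.17 CPM. For Relb the levels were 11.1 and 7.77 CPM, and the interval of the interplacode over mutant log2 ratio spanned 0 (-1.22 to 0.18). The mutant cells were deeper, at a median of 23638 UMIs per cell.

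**Figure D3:**
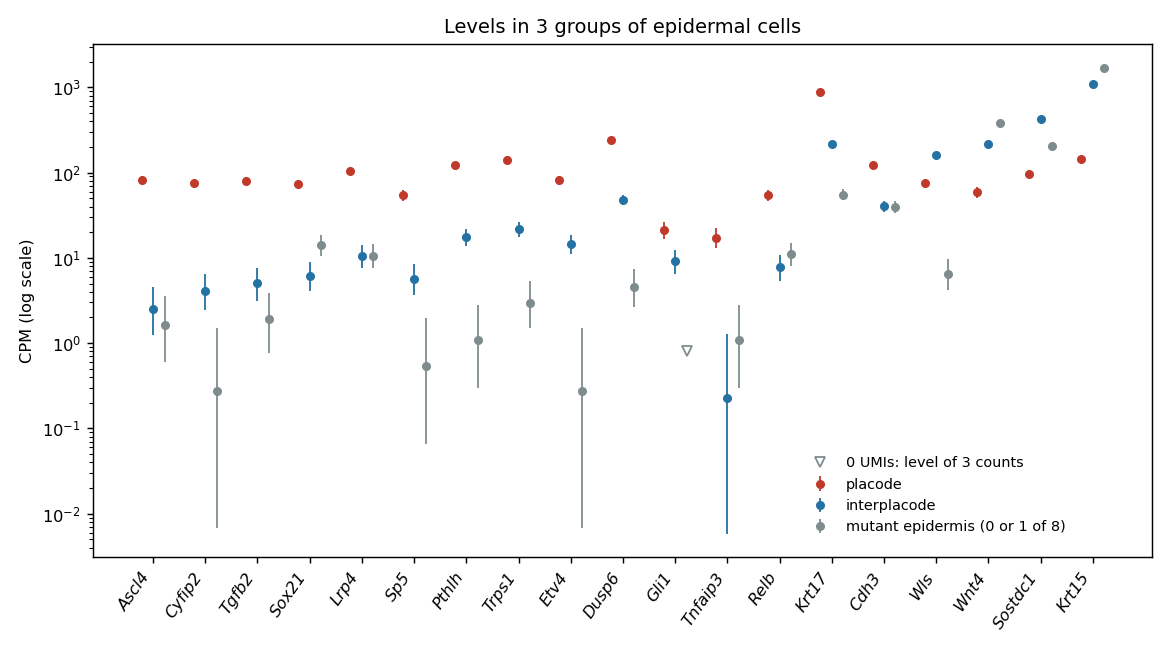
Level in CPM on a log scale (vertical axis) of 19 genes in placode, interplacode and mutant epidermal cells. Bars are exact 95% Poisson intervals for counting error, and an open triangle marks a gene with 0 UMIs at the level of 3 counts. Dusp6 and Etv4 step down from placode to interplacode to mutant cells, while Krt15 and Wnt4 step up.

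Adhesion and basement membrane genes included both directions. Of 16 cadherin and junction genes 3 were higher, 2 lower and 11 between (median 0.14). P-cadherin, Cdh3, was at 121 against 40.2 CPM (1.59, 1.33 to 1.85), whereas E-cadherin, Cdh1, was at 22.1 against 32.0 (-0.54, under 1.5-fold). Tjp1, the tight junction scaffold, was at 58.2 against 21.5 CPM. Dsc3 and Pkp1, desmosomal genes, were lower at -3.56 and -2.26. Of 22 integrin, laminin and basement membrane genes 3 were higher, 6 lower and 13 between (median -0.12). The higher ones were Frem1 (64.5 against 15.1 CPM) and Frem2 (68.2 against 27.4), basement membrane proteins of the Fraser complex, and Npnt, at 0.75. Among the lower ones, the hemidesmosome genes Dst and Itgb4 were at 24.9 against 123 CPM and 16.3 against 36.1. The count of lower members was 3 when levels were means over cells and 2 of 19 in thinned cells.

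Of 22 cytoskeleton genes 4 were higher, 4 lower and 14 between (median -0.17). Higher were 7 of 20 without the top 8% of doublet scores and 8 of 20 without cells holding 3 or more markers of another type (median 0.05). Myl9, a myosin light chain among the lower ones (-1.35), was at 1.37 with no keratin minimum. Cyfip2 and Mical2 had the highest ratios of the list, and Rnd3, an atypical small GTPase of the actin cytoskeleton, was at 112 against 51.4 CPM (1.12). Cyfip1, the close relative of Cyfip2, was at 55.3 against 61.3 CPM (-0.15). Celsr1 and Vangl2, planar polarity genes of the epidermis, were under 1.5-fold at -0.45 and 0.57.

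Basal keratinocyte genes were lower in placode cells. Of 12 measured, 7 were lower, 1 higher (Cdh3) and 4 between (median -0.91), but 4 of the 12, Krt5, Krt14, Krt15 and Trp63, also served to find epidermal cells in both groups. Krt15, a basal keratin, was at 143 CPM in placode, 1091 in interplacode and 1673 in mutant cells (-2.93, -3.07 to -2.80), Krt5 at 284, 934 and 867, and Krt14 at 1225, 1608 and 1256. Trp63, the master factor of stratified epithelia, was even at 166 against 154 CPM. Dlk2, a Notch ligand relative, had 1 UMI in placode and 73 in interplacode cells (-5.86, -11.19 to -3.34). Of 5 measured periderm genes 3 were higher and 1 lower, and 1 of 3 was higher in thinned cells. Krt17, which is also a follicle keratin, was at 889 against 219 CPM, Krt18 had 65 UMIs against 11, and Sfn, the lower one, was at 125 against 312 CPM.

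Of 7 measured suprabasal genes 6 were lower and 1 was higher. Krtdap, a differentiation-associated secreted protein, was at 5.45 against 218 CPM (-5.32, -6.06 to -4.67) and Krt1, the first differentiation keratin, at 5.73 against 38.6 (-2.75). Cells with a UMI of 3 or more of 7 suprabasal markers were 32 of the 203 placode and 71 of the 215 interplacode cells. Without them, 2 of 5 measured suprabasal genes were lower and the Krtdap log2 ratio was -1.81.

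The other lowest genes were not keratinisation genes alone. Anxa1, an annexin, was at 10.3 against 134 CPM, Phlda2, an imprinted growth regulator, at 3.44 against 49.6, and Ptprz1, a receptor phosphatase, at 2.01 against 23.5. Lmo1, a LIM-only cofactor, was at 56.8 against 355 CPM. Ackr3, Klf3, Chchd10 and Cstdc5 lay between -2.38 and -2.61, with the Cstdc5 log2 ratio at -1.72 without suprabasal cells. Crip2 and Cavin2, at -2.52 and -2.79, are also endothelial genes. Crip2 was in 7.39% of placode and 6.98% of interplacode cells, its ratio was -0.81 as a mean over cells, and the 6 endothelial markers summed to 11 UMIs in placode cells, with Tie1 and Emcn at 0, and 263 in interplacode cells. The part of that signal in these 2 genes was not tested.

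Few cell cycle genes passed 1.5-fold between the groups. Of 43 S phase genes 1 was higher and 0 were lower (median 0.15). Of 51 G2M genes 0 were higher and 0 lower (median 0.04), from -0.40 for Ccnb1 to 0.52 for Top2a and G2e3. In thinned cells the S phase genes summed to a median of 25 UMIs per placode cell and 26 per interplacode cell, and the G2M genes to 76 and 73. Inhibitors of the cycle divided, with 2 of 9 measured higher and 2 lower. Cdkn1a, which encodes p21, was at 30.4 against 8.92 CPM (1.77), in 16.3% and 6.05% of cells, and Btg1 at 442 against 134. The Cdkn1a log2 ratio ran from 0.88 without a keratin minimum to 3.89 without cells holding 3 or more markers of another type.

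Of 11 apoptosis and p53 genes 5 were higher and 0 lower (median 0.56). The count was 2 of 8 measured in thinned cells (median 0.11), with 100 or more UMIs (0.17) and without cells holding 3 or more markers of another type (0.29). Both survival and death genes of the Bcl2 family were among them, with Bcl2 at 62.5 against 20.3 CPM, Bcl2l1 at 17.2 against 8.0, Bcl2l11 at 22.1 against 7.09 and Bbc3 at 13.2 against 3.20. Of 14 dissociation stress genes 5 were higher and 2, Fos and Hspa1b, lower (median 0.19), with 2 of 10 higher in thinned cells. Without the top 8% of doublet scores, 6 of 9 stress genes were higher and 0 lower (median 0.77). Without cells holding 3 or more markers of another type, 4 of 6 were higher and 0 lower (median 0.85). Of 14 glycolysis and hypoxia genes 0 were higher and 1, Ndrg1, lower (-1.97). Of 15 mTORC1 and lysosome genes 2 were higher and 0 lower, with Rragd, a Rag GTPase of the amino acid sensing pathway, at 56.5 against 8.23 CPM (2.78, 2.26 to 3.33) and 0.542 in mutant cells. Its relative Rraga was at 103 against 81.2 CPM (0.34).

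Markers of other cell types were present in both groups. Cells with a UMI of 3 or more markers of another type were 78 placode cells (38.4%) and 94 interplacode cells (43.7%), mostly by fibroblast markers (61 and 78 cells). The 6 erythroid markers had the highest sum, 11261 and 9741 CPM, with 3 or more of them in 28 and 38 cells and up to 250253 and 528231 CPM in a single cell. The 6 fibroblast markers summed to 1910 and 1857 CPM. The 6 macrophage markers summed to 152 and 82.5 CPM. The 6 mast cell markers summed to 132 and 15.1 CPM, with Mcpt4 and Fcer1a at 0, and the mast cell sum reached 7430 CPM in 1 placode cell. Merkel cell markers summed to 20.4 and 9.37 CPM, with Atoh1 and Krt20 at 0 in placode cells. Without all cells that held 3 or more markers of another type, 125 placode and 121 interplacode cells remained, and 889 of 6008 measured genes were higher and 502 lower. The part of these RNAs in other differences was not tested.

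Members differed among themselves with the number of the 8 genes detected. Wildtype epidermal cells were set in 5 bins, with 0 or 1 (215 cells), 2 (48), 3 (42), 4 (37) and 5 or more (124). Their median depths were 17415, 14882, 14206, 15097 and 14989 UMIs. Ascl4 went from 2.51 to 4.80, 52.0, 41.9 and 101 CPM over the bins, and so stepped up between cells with 2 and with 3 of the 8. Krt17 was at 219, 649, 893, 863 and 896 CPM, with its step already at 2 of the 8. Sp5 was at 5.72, 6.0, 14.2, 38.9 and 70.9 CPM, and Myb at 3.89, 1.20, 9.45, 15 and 55.8. Both were higher with 5 or more of the 8 than with 3 or 4. The end bins of a gene chosen as higher or lower in placode cells had to differ, so only the steps between them are described. From 2 through 5 or more of the 8, 5 of 12 basal genes and 1 of 7 suprabasal genes were lower at each step. The same share over all measured genes was not computed, so these counts are a description only. Among the 12 basal genes, Krt5, Krt14, Krt15 and Trp63 also served to find epidermal cells. Krt15 was at 1091, 922, 244, 168 and 106 CPM, and Wnt7b at 35.0, 38.4, 14.2, 12 and 1.83. Anxa1 was at 134, 60.0, 26.8, 10.5 and 5.49 CPM, already lower in cells with 2 of the 8. Summed S phase genes in thinned cells had medians of 31.5 and 32.5 UMIs in cells with 3 and 4 of the 8 and of 21 with 5 or more.

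**Figure D4:**
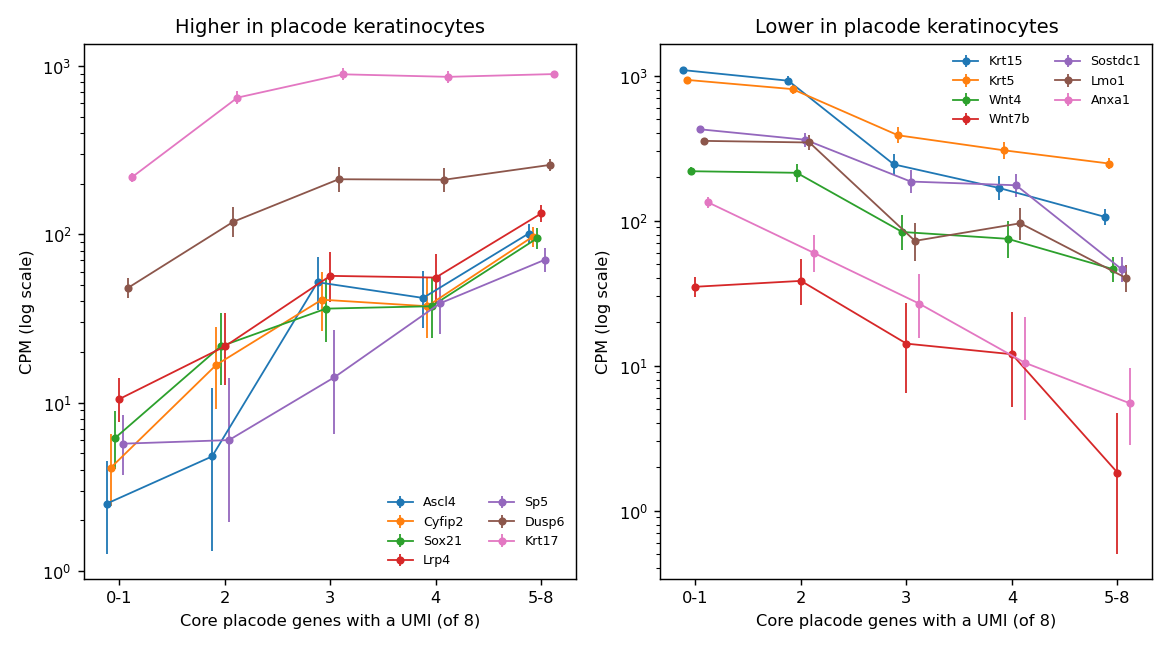
Level in CPM on a log scale (vertical axis) of 7 genes higher (left) and 7 lower (right) in placode keratinocytes, in wildtype epidermal cells binned by the number of core genes with a UMI (horizontal axis). Bars are exact 95% Poisson intervals for counting error. Krt17 is near its highest level from 3 genes on, while Ascl4, Sox21 and Sp5 are highest with 5 or more and Wnt7b is lowest there.

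Placode cells with and without a Shh UMI, 113 and 90 cells at median depths of 14559 and 15318 UMIs, were also set side by side. A cell without a UMI may still express Shh, so this split is a description. Shh is also a rule gene, so a Shh-negative member had 3 or more of the other 7, and the median number of the 8 was 6 in Shh-positive and 4 in Shh-negative cells. Of 6162 genes with 50 or more UMIs, 404 (6.56%) were at least 1.5-fold higher in Shh-positive cells and 170 (2.76%) lower. Trbc2, a T cell receptor constant segment, was at 53.6 against 9.80 CPM (log2 ratio 2.45, 1.66 to 3.34). Runx1 was at 43.9 against 11.8 CPM (1.90), Cyfip2 at 105 against 37.3 (1.5), Sp5 at 75.6 against 27.5 (1.46) and Myb at 54.7 against 20.3 (1.43). Tgfb2 was at 107 against 45.1 CPM. Trbc2, Cyfip2, Sp5, Myb and Tgfb2 were also among the 15 highest of placode over interplacode cells.

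Lower in Shh-positive cells were Fst (-1.36), Sox9 (-1.20), Krt15 (-1.16), Fgfbp1 (-1.13) and Sostdc1 (-1.09). Sox9 was at 14.8 CPM in Shh-positive and 34.0 in Shh-negative cells (-1.91 to -0.52), whereas it was nearly even between placode and interplacode cells. Ccn2, which was higher in placode cells, was at 31.7 against 64.7 CPM (-1.03), so its Shh-negative level was the greater. Among hedgehog targets, Ptch1 was at -0.02 and Gli1 at -0.28, and of the ERK response genes Dusp6 was at 0.11 and Etv4 at 0.16.

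The cell cycle lists had medians of opposite sign in this split, beside a median of 0.07 over all measured genes. Of 39 measured S phase genes 0 were higher and 10 lower in Shh-positive cells (median -0.39), with Ccne2, the cyclin of S phase entry, at 8.68 against 26.8 CPM (-1.63) and Exo1, a DNA repair nuclease, at 10.7 against 30.7 (-1.52). Pcna, the replication clamp, was at 117 against 194 CPM (-0.72). Of 50 measured G2M genes 4 were higher and 0 lower (median 0.28). Over all measured genes 6.56% were higher and 2.76% lower, so the G2M counts lay near these shares.

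**Figure D5:**
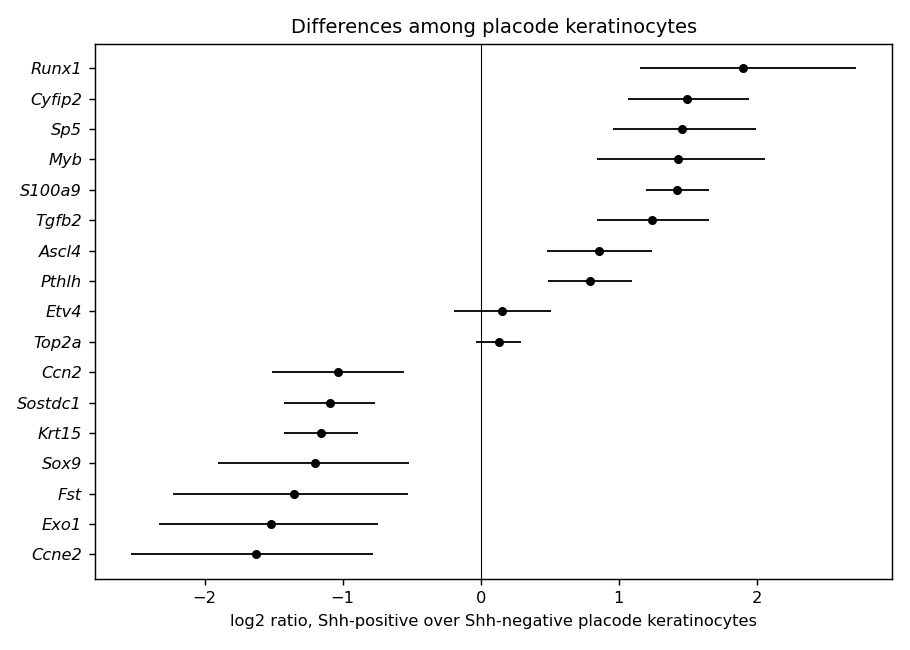
Log2 ratio of Shh-positive over Shh-negative placode keratinocytes (horizontal axis) for 17 genes, with exact 95% intervals for counting error. Runx1, Cyfip2, Sp5 and Myb lie well to the right of 0 and Ccne2, Exo1, Fst and Sox9 to the left, while Etv4 and Top2a lie near it.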

How the data were processed

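The authors deposited UMI counts per gene and barcode (whole numbers, Cell Ranger 6.1.2 per the file headers) with the gene and barcode names and a list of dermal barcodes, which hold other information. The build is mm10 and Seurat is named, per the submitters' processing notes. How the dermal cells were chosen is not given in the sources used here. Each library is 1 sample, and 32235 of the 32285 genes had GENCODE release 21 coordinates (GRCm38). The other cell classes named as background were set by marker genes.

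Raw counts were summed over the cells of each group and scaled to CPM, with exact Poisson intervals. Ratios have the exact conditional binomial interval, and genes at 0 were set against 3 counts over the group. Genes with 50 or more UMIs over both groups counted as measured, and 1.5-fold was the call. The members and the 25 gene lists were chosen with earlier results of these data known. Named genes were the 15 highest and 15 lowest ratios (100 or more UMIs, leaving out mitochondrial, ribosomal, haemoglobin and sex-linked genes and genes below 5% of their level in another cell class), up to 4 members of each list, and Wls. Other list members were named after their values were seen. A few genes that the rule names are counted but not reported here. Scrublet (scanpy 1.11.5) called 244 of the 9065 wildtype barcodes (2.69%) but 1 of the 10449 in the mutant (0.00957%). The caller did not work in the mutant, and no cell was removed in the values above. An alternative left out the top 8% of scores. The intervals were tested on simulated counts that held counting error only. That simulation cannot show how they behave with spread between cells. In addition, 15 alternative settings were run. Computations used Python 3.11.15, numpy 2.4.6, scipy 1.17.1, pandas 2.3.3 and matplotlib 3.10.9.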

Additional observations from a re-analysis of the deposited data

How the results depend on the processing

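Of 104 named genes past 1.5-fold, 96 stayed past it in the same direction under every one of the 15 settings that gave a value. The exceptions included Disp1, Fgfr1, Fgfr2, Ier3, Notch1, Tfe3 and Myl9. Myl9 reversed, with a Myl9 log2 ratio of -1.35 as reported and 1.37 with no keratin minimum, a setting chosen after the data were seen, as was leaving out cells with 3 markers of another type. The ratio left its counting interval for 27 of 108 named genes against cells with 0 of the 8 and for 26 of 92 without cells with other markers. With 20 or more UMIs in place of 50, 1447 genes were higher and 1156 lower, and with 100 or more 595 and 399, since more or fewer genes were then measured. Median-of-ratios scaling gave 858 higher and 797 lower. The count of higher FGF and ERK response genes was 3 with 100 or more UMIs, with 4 or more of the 8 genes and without suprabasal cells. It was 6 without the top 8% of doublet scores and without cells with 3 markers of another type, and 7 with no keratin minimum. The secreted signals had 7 higher with 20 or more UMIs. The integrin list had 3 lower as means over cells, 2 in thinned cells and 3 against cells with 0 of the 8. The cytoskeleton list had 7 higher without the top 8% of doublet scores and 8 without cells with 3 markers of another type. The suprabasal list had 2 lower without suprabasal cells. S phase genes had 0 higher under median-of-ratios scaling, with 4 or more of the 8, against cells with 0 of the 8, without suprabasal cells, with 2000 genes and under 5% mitochondrial UMIs, without 1% collagen cells and with no keratin minimum, and 2 in thinned cells. G2M genes had 3 higher as means over cells, without the top 8% of scores and without cells with other markers, 2 in thinned cells, with 4 or more and against 0 of the 8, 1 with 20 or more UMIs and 5 without suprabasal cells. The wildtype placode share was 36.4% in thinned cells, 53.9% with 2 or more of the 8, 34.5% with 4 or more and 48.6% without suprabasal cells. The mutant share was 0% in thinned cells and 9.74% with 2 or more. Beyond each setting's own construction, the cause was not tested. Genes under 50 UMIs are not resolved at this depth. No paired analysis was possible because each genotype has 1 library.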
